A study of Mus musculus with 6 samples.

Results

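Cytosolic ribosomal protein genes and their paralogues were followed in mouse embryonic stem cells transfected with interfering RNA against Panct1, a long noncoding RNA. Members were the genes with a probe set of exactly 1 symbol that fits the naming pattern of ribosomal proteins (Rpl, Rps or Rplp and a number, with an optional letter). The pattern found 48 of the 18193 genes measured: 42 core genes, the 4 paralogues Rpl39l, Rpl22l1, Rps27l and Rpl7l1, and 2 further paralogues, Rpl3l and Rps4l. Each gene is given by its probe set with the highest mean over the 6 arrays.

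The cells were Oct4-Gip embryonic stem cells, grown in medium with fetal bovine serum and LIF, a cytokine that sustains self-renewal. In the first group, 60000 cells were transfected with 800 ng of esiRNA against Panct1, and in the other with esiRNA against Luciferase, a gene absent from mouse cells. An esiRNA is a pool of short interfering RNAs made from a longer double-stranded RNA. RNA was taken 72 hours after transfection and read on Affymetrix mouse expression arrays, 3 with Panct1 esiRNA and 3 with Luciferase esiRNA. Whether the 3 samples of a group came from separate cultures is not given in the sources used here, so the p-values cover no more than the variation among these arrays, part or all of which may be technical. No probe set in the annotation used here is named Panct1 or carries its accession, so the depletion itself was not assessed. The word knockdown below stands only for the Panct1 esiRNA arrays.

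A ribosome holds 1 copy of nearly every ribosomal protein, and growing cells keep the messenger RNAs of the large (Rpl) and small (Rps) subunit proteins at matched, very high levels. Most of these messages start with a terminal oligopyrimidine tract, through which mTORC1 controls their translation. A few genes have a close paralogue elsewhere in the genome, often used in particular tissues: Rpl3l in heart and skeletal muscle, Rpl39l in testis. Rpl22l1 is held down by Rpl22 in mouse cells, and human RPS27L is a target of p53.

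The promoters of the 4 paralogues, and of Rpl39 as the parent of the paralogue that changed most, are shown because the paralogues are the members whose values are given one by one. They are RefSeq sequences of build GRCm38.p6, from 100 bases before the annotated start through the first 10 transcribed bases. Capitals mark CCGGAAG, the core bound by ETS family factors, and TATAAA, the TATA box, on either strand.

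Rpl39l: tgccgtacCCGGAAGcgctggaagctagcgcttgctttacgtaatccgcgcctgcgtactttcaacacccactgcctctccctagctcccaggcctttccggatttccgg
Rpl39: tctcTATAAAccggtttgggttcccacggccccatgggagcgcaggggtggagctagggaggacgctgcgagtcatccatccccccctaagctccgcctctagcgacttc
Rpl7l1: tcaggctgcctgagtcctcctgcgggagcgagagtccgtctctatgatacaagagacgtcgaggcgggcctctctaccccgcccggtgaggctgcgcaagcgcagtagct
Rpl22l1: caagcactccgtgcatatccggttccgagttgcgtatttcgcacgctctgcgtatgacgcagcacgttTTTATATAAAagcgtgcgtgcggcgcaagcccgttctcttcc
Rps27l: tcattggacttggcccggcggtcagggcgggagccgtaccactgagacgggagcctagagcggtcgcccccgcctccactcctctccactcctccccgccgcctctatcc

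The Rpl39l sequence lies at chr16:10170128-10170237 on the plus strand and the Rpl39 sequence at chrX:37085213-37085322 on the minus strand. Rpl7l1 lies at chr17:46782647-46782756 on the minus strand, Rpl22l1 at chr3:28805408-28805517 on the plus strand and Rps27l, at the first of its 2 listed starts, at chr9:66945986-66946095 on the plus strand. In Rpl22l1 the 10 capitals are 2 overlapping matches, TATAAA on one strand and on the other. Over the whole windows of 300 bases (250 before the start and 50 from it on), 42 of the 48 members had an entry. CCGGAAG on either strand was found for 18 of 37 core genes (48.6%) and for Rpl39l and Rps27l among the 4 paralogues, against 9.93% of the 27025 genes of the table. A C at the annotated start followed by 4 pyrimidines was found for 8 of 37 core genes (21.6%) and 0 of 4 paralogues, against 3.01% of all genes of the table. TATAAA was found for 5 core genes (13.5%), against 15.7%, and the E-box CACGTG, which Myc and its relatives bind, for 4 core genes (10.8%), against 8.09%. These matches are descriptions of the letters, and annotated starts can lie some bases from the true ones.

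Among the 48 members 3 fell and 0 rose at an adjusted p under 0.05 in limma, where 24.2% of all genes were called, 11.3% as lower and 12.9% as higher. All 3 were paralogues: Rpl39l, Rpl7l1 and Rpl3l. Rpl39l had the largest difference. Rpl39l is the paralogue of Rpl39, a small protein of the large subunit near the exit tunnel of the nascent chain. Its log2 signal was 10.37, 10.13 and 10.31 on the Panct1 esiRNA arrays, against 12.19, 12.24 and 12.02 on the Luciferase esiRNA arrays. All 3 knockdown arrays lay far below all 3 control arrays. The mean was 10.27 ± 0.12 in knockdown and 12.15 ± 0.12 in control (SD, n = 3 each), so Rpl39l fell by 1.88 on the log2 scale, with a 95% interval of the difference from -2.08 to -1.68 (limma adjusted p = 4.44e-06). That is a 3.68-fold lower signal and the 7th largest fall among the 18193 genes. No other probe set was annotated to Rpl39l, so its fall rests on this set alone. A bulk array cannot tell fewer cells with the transcript from less transcript per cell.

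Rpl7l1, a relative of Rpl7, which belongs to the large subunit, fell by a smaller amount. Its signal was 11.46, 11.38 and 11.39 in knockdown, against 11.74, 11.75 and 11.77 in control, and the groups did not overlap. The difference was -0.34 (SE 0.06; limma adjusted p = 0.00321), a 1.27-fold lower signal. The call was lost only when a change of at least 1.2-fold was asked for (adjusted p = 0.759), among 16 other settings over which it ran from 2.36e-04 to 0.759. Of its other probe sets, the dimmest also fell, by 0.42 (limma adjusted p over all probe sets 0.00373), and the remaining one differed by -0.15 without passing (0.212).

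Rpl22l1 and Rps27l, the paralogues of Rpl22 and Rps27, did not pass. Rpl22l1 gave 13.61, 13.65 and 13.61 in knockdown, against 13.47, 13.42 and 13.48 in control. The knockdown arrays were all higher, by 0.17 on average, with an interval of the difference from 0.03 to 0.30 (limma adjusted p = 0.0738). That adjusted p lay between 0.0027 and 1 over 15 other settings and was under the threshold of 0.05 in 4 of them: with quantile normalisation repeated, with an intensity trend, with array weights and without the dimmer probe sets. Rps27l gave 13.98, 14 and 13.92 in knockdown, against 13.87, 13.91 and 13.93 in control. These groups overlapped, and the difference of 0.06 had an interval from -0.07 to 0.20 (limma adjusted p = 0.515). Its other 2 probe sets differed by 0.08 and 0.09. Their groups did not overlap, but neither set passed (limma adjusted p over all probe sets 0.492 and 0.432).

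Among the further paralogues, Rpl3l, the muscle form of Rpl3, gave 4.61, 4.80 and 4.95 in knockdown, against 5.43, 5.35 and 5.26 in control. It fell by 0.56 (SE 0.09; limma adjusted p = 0.00262) from a signal not far above the arrays' lower quartile (4.65 to 4.70). Its call was lost when a change of at least 1.2-fold was asked for (adjusted p = 0.0753, the highest over 15 other settings, with 5.83e-04 the lowest). Rps4l, a copy related to Rps4x, gave 13.85, 13.83 and 13.83 in knockdown, against 13.89, 13.88 and 13.83 in control. Its groups touched at 13.83, and its difference of -0.03 did not pass (interval from -0.16 to 0.10).

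**Figure D1:**
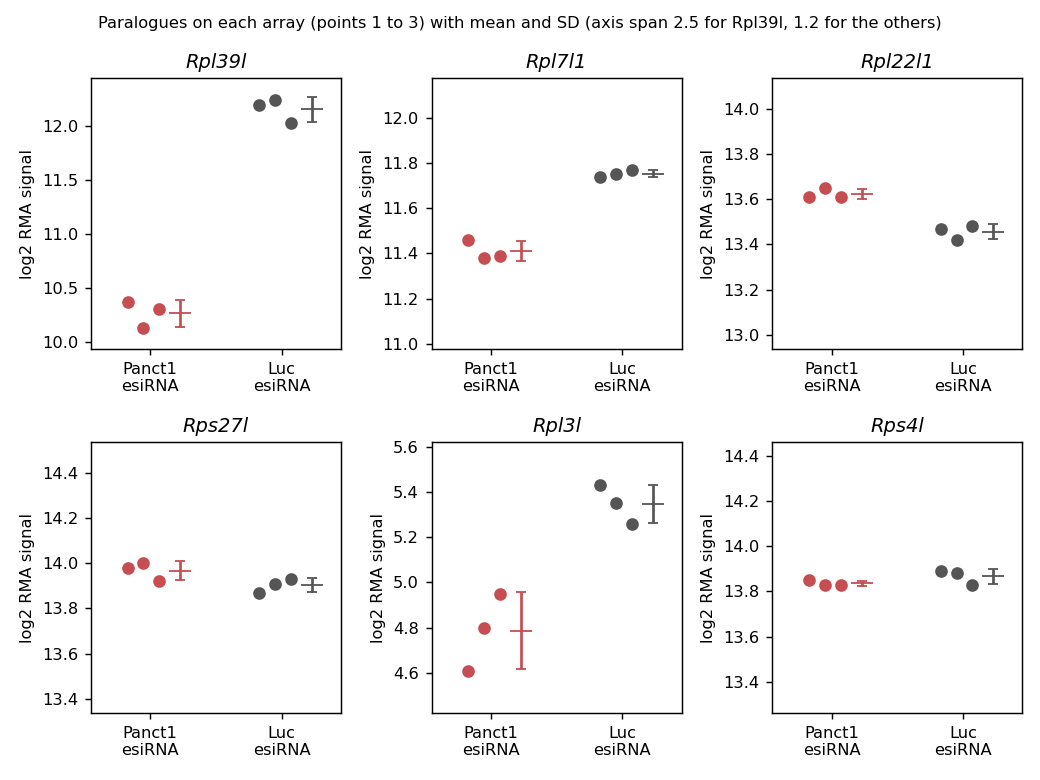
Log2 RMA signal of the 6 paralogues on each array, Panct1 esiRNA on the left and Luciferase esiRNA on the right of each panel. The points are the 3 arrays of a group and the bar beside them the mean with its SD; the differences are -1.88 for Rpl39l, drawn on a wider axis, -0.56 for Rpl3l and -0.34 for Rpl7l1.

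Each of the 4 paralogues was set against its parent gene within each array, and the log2 ratio was compared between groups. The ratio of Rpl39l to Rpl39 was lower by 1.84 in knockdown, since Rpl39 itself differed by -0.04. The ratio of Rpl7l1 to Rpl7 was lower by 0.34, and that of Rpl22l1 to Rpl22 was higher by 0.21. In these 3 pairs knockdown and control ratios were fully separated, which gives a two-sided exact permutation p of 0.1, the smallest that 3 against 3 arrays allow (0.133 after adjustment over 4 pairs). The ratio of Rps27l to Rps27 differed by 0.12 (exact permutation p = 0.2). The parent sets differ in what they can show: the Rpl7 and Rpl22 sets are among the brightest on the array, while the only set with the single symbol Rpl39 has a signal of 6.59 ± 0.04 in knockdown and 6.63 ± 0.05 in control (SD, n = 3 each). A set shared by Rpl39 and a numbered gene model was far brighter, at 14.58 in knockdown and 14.61 in control, and differed by -0.02.

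None of the 42 core genes passed at an adjusted p under 0.05 in limma, against 24.2% of all genes, and 1 of the 42 had an unadjusted p under 0.05. Of 44 core genes counted with Rpl3l and Rps4l, 1 fell (Rpl3l) and 0 rose. The median difference of the 42 genes was -0.01 with quartiles at -0.03 and 0.02, beside a median of -0.02 and quartiles at -0.13 and 0.11 over all genes. Their differences ran from -0.18 to 0.10, with 25 below 0, 16 above and 1 at 0. Knockdown and control arrays were fully separated for 11 of the 42 (26.2%), 8 of them lower and 3 higher in knockdown, against 38.3% of all genes (19.6% lower and 18.7% higher). Small and large subunit genes gave medians of -0.02 (20 genes) and 0.00 (-0.003; 22 genes).

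**Figure D2:**
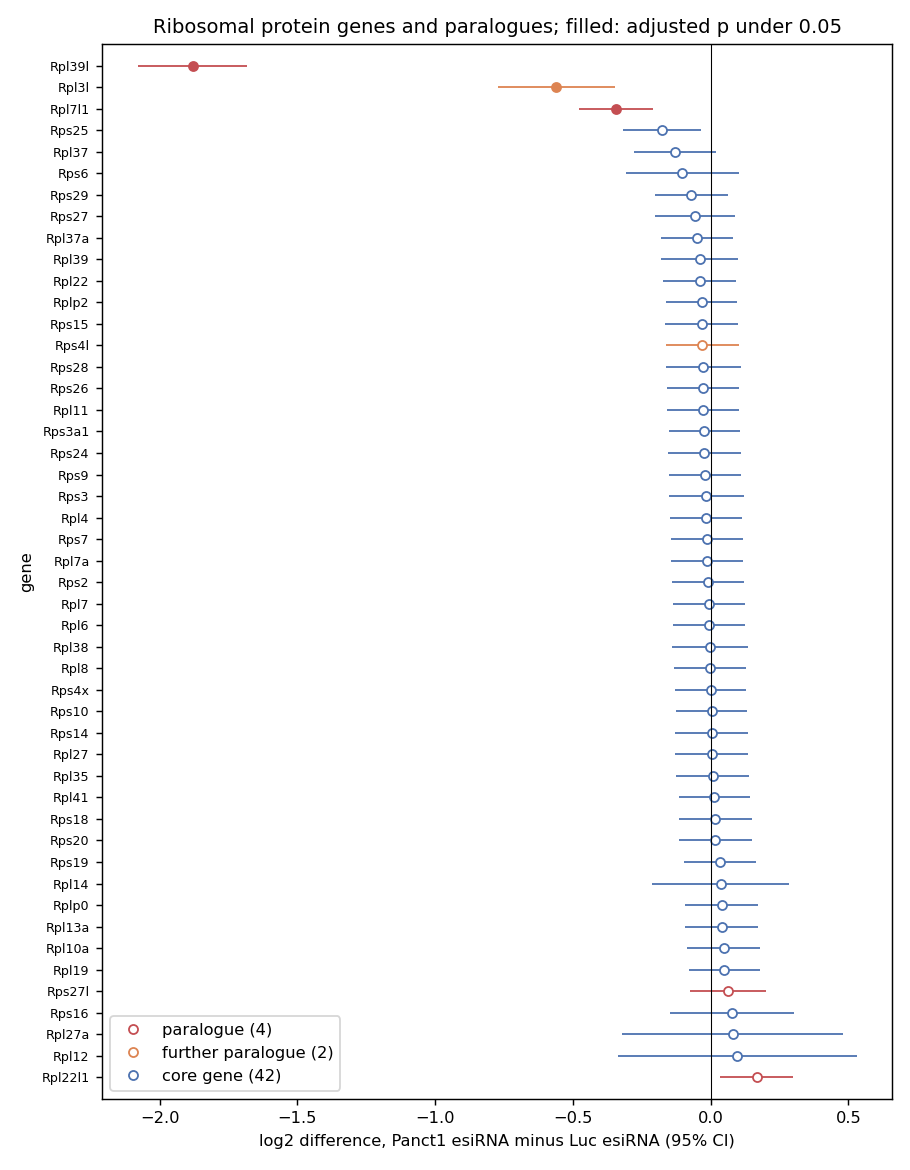
Log2 difference, Panct1 esiRNA minus Luciferase esiRNA, of the 48 members with its 95% interval; filled points passed at an adjusted p under 0.05. Rpl39l at -1.88, Rpl3l at -0.56 and Rpl7l1 at -0.34 stand left of the other 45 genes, which lie between -0.18 and 0.17.

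Most core genes were read close to the top of the signal scale. For 33 of the 42 the probe set had a mean of at least 14, between 14.17 and 14.88, where the highest value of any tested set was 14.96 to 14.98 per array. Within these 33 genes the SD of a group was at most 0.05 and the differences lay between -0.07 and 0.05. Their 95% intervals lay inside -0.20 to 0.18. The SE that limma gives a difference also draws on the spread over all genes, and its median for these 33 was 0.058. The intervals and p-values therefore do not measure these genes' own spread alone. The smallest difference called for any gene was 0.19. Bands of brightness were compared after the core values were seen. Of 33 non-members with a mean of at least 14, 0 passed in limma (0.0% called; 2 at an unadjusted p under 0.05), with differences from -0.18 to 0.16. The share called among non-members was 16.2% at signals from 13 to under 14, 25.8% from 12 to under 13 and 31.8% from 10 to under 12. Whether the brightest sets still follow their transcripts in proportion was not tested.

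**Figure D3:**
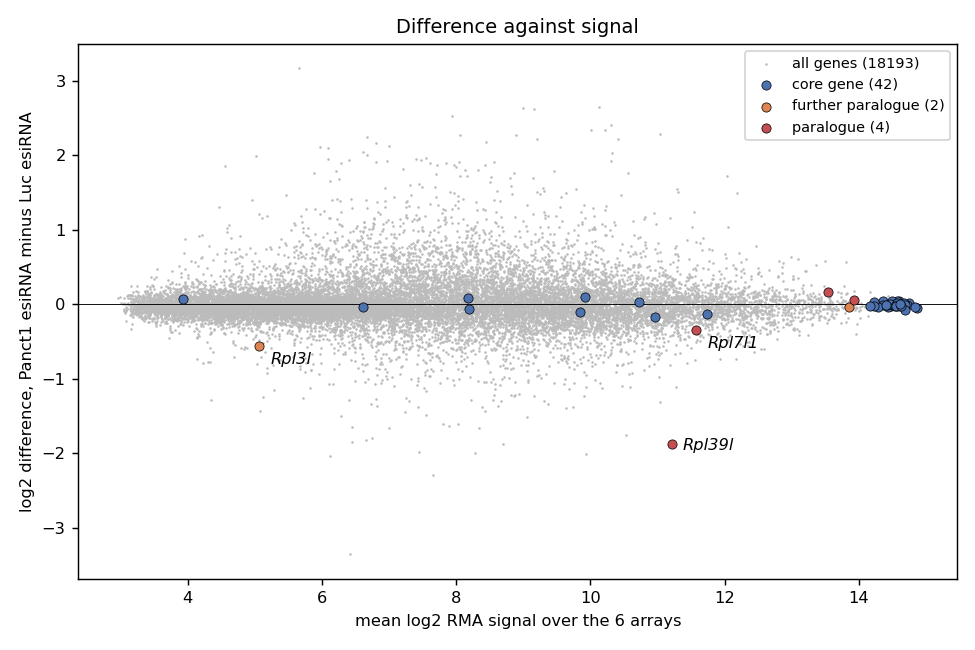
Mean log2 RMA signal over the 6 arrays (horizontal) and log2 difference, Panct1 esiRNA minus Luciferase esiRNA (vertical), for all 18193 genes in grey and the members in colour. Most core genes sit at the right end, above a signal of 14, while Rpl39l lies at a mean of 11.21 and a difference of -1.88.

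The bright core genes included several that are often used as references or studied alone. Rplp0, the stalk protein used for normalisation, gave 14.51, 14.50 and 14.53 in knockdown, against 14.44, 14.48 and 14.50 in control. Rpl13a, another common reference, gave 14.63, 14.62 and 14.61 in knockdown, against 14.55, 14.62 and 14.57 in control. Rpl11, which binds Mdm2 when ribosome assembly is disturbed, gave 14.44, 14.47 and 14.47 in knockdown, against 14.50, 14.48 and 14.48 in control. Rps19, the gene most often mutated in Diamond-Blackfan anaemia, gave 14.25 on each knockdown array, against 14.20, 14.24 and 14.21 in control. These 4 genes differed by 0.04, 0.04, -0.03 and 0.03, and none passed. The parent genes Rpl22 and Rpl7 differed by -0.04 and -0.01.

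A further 7 core genes had a signal between 8 and 14, and none of them passed. Rps6, the substrate of S6 kinase, gave 9.94, 9.77 and 9.68 in knockdown, against 9.81, 10.04 and 9.85 in control, and the groups overlapped. Rps27 gave 8.13, 8.16 and 8.22 in knockdown, against 8.24, 8.16 and 8.28 in control. The others are named after their values were seen. Rps25, a small subunit protein needed for initiation at some internal entry sites, had the lowest difference of the core. It gave 10.83, 10.91 and 10.87 in knockdown, against 11.01, 11.03 and 11.10 in control, and the groups did not overlap. Its difference was -0.18 with an interval from -0.32 to -0.04 (limma adjusted p = 0.0712, and 0.0292 to 1 over 16 other settings). Rpl37 was next at -0.13 (interval from -0.28 to 0.02), also without overlap. Brighter sets of both genes, which carry further symbols, gave smaller differences, and their groups overlapped. That of Rps25, at 14.09 in knockdown, differed by -0.03. Those of Rpl37, at 14.55 and 14.29 in knockdown, each differed by -0.02, and a dimmer one at 7.66 differed by 0.05.

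In Rpl12, Rpl27a and Rpl14, also chosen after their values were seen, the arrays of 1 group differed more than the groups did. Rpl12 gave 9.72, 10.08 and 10.09 in knockdown, against 10.00, 9.40 and 10.20 in control. Rpl27a gave 8.57, 7.87 and 8.22 in knockdown, against 7.86, 8.23 and 8.33 in control. Their intervals, from -0.34 to 0.53 and from -0.32 to 0.48, were the widest of the core. The last 2 core genes were read dimly: Rpl39, given above, and Rps16, whose single-symbol set had a signal of 3.97 ± 0.13 in knockdown and 3.89 ± 0.16 in control (SD, n = 3 each), under the lower quartile on all 6 arrays. Sets of Rps16 that carry further symbols read 14.45 and 14.72 in knockdown, and both differed by 0.03. Rps6, Rpl12, Rpl27a and Rpl14 also had such sets above 14, and the brightest of each differed by 0.00, 0.07, -0.04 and 0.01. None of them passed, though the groups did not overlap in those of Rpl12 and Rpl27a.

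The 48 members had 103 probe sets in all. Over all probe sets 14.6% were called in limma, 6.76% as lower, and of the 93 core sets 0 were called, with 4 at an unadjusted p under 0.05. The 4, named after their values were seen, were 2 sets of Rps20 at -0.61 and -0.49, 1 of Rps24 at 0.46 and the one of Rps25. The brighter sets of the same genes did not follow them: both other Rps20 sets, with signals of about 14.5, differed by 0.02, and the brightest Rps24 set differed by -0.02. What the dimmer sets of Rps20 and Rps24 read was not tested.

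Many ribosomal protein genes have probe sets that carry further symbols, often those of pseudogenes or numbered gene models, and these sets fall outside the rule. There were 110 such sets for 44 genes, 29 of which had no set of their own. Their median difference was 0.00 (-0.002), and 108 of the 110 did not pass, between -0.35 and 0.15. Rpl10, the parent of Rpl10l, differed by -0.01 and 0.00 over 2 sets. The brighter set of Rpl3, the parent of Rpl3l, differed by 0.01. Its dimmer set differed by -0.33, with overlapping groups, and did not pass (limma adjusted p over all probe sets 0.234). The sets shared by Rpl36a and Rpl36al differed by -0.09 and -0.12. Rpl5, which acts with Rpl11 on Mdm2, differed by 0.02 in its brightest set, while its other 2 sets differed by -0.34 and -0.35 with an SD of about 0.4 among knockdown arrays. A set shared by Rps27 and its retrogene, at signals above 14, differed by -0.06.

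Of the shared sets, 1 fell and 1 rose, and for both the other sets of the gene disagreed. A dim set of Rpl30 and 4 numbered gene models fell by 0.58 (limma adjusted p over all probe sets 0.00924), while its bright set differed by -0.03. A set shared by Rpl13 and Tax1bp3 rose by 1.24, while the 3 other sets of Rpl13 differed by -0.12, -0.08 and -0.06. In these 3 sets all knockdown arrays lay below all control arrays, but none passed. Such separation, in either direction, was seen for 38.3% of all genes. Tax1bp3, a PDZ domain protein, rose by 0.99 in its own set, with 10.49, 10.41 and 10.53 in knockdown, against 9.42, 9.61 and 9.42 in control.

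Genes that make or regulate ribosomes were described from lists written from textbook knowledge, by counts and medians. RNA polymerase I, which transcribes the ribosomal RNA precursor, and its factors had 18 of 20 genes measured, of which 7 fell and 0 rose (38.9% called), where 24.2% of all genes were called, 11.3% as lower and 12.9% as higher. Non-members with a signal from 10 to under 12 were called in 31.8%. The list's mean signal per array was 10.38 to 10.42 in knockdown and 10.60 to 10.64 in control. The median difference was -0.16, beside -0.02 over all genes. Znrd1, a polymerase I subunit, gave 10.65, 10.64 and 10.64 in knockdown, against 11.35, 11.31 and 11.27 in control, and fell by 0.67 (limma adjusted p = 8.96e-05). Ubtf, the factor that keeps ribosomal DNA open, gave 11.13, 11.20 and 11.16 in knockdown, against 11.80, 11.56 and 11.75 in control. It fell by 0.54, the promoter factor Taf1c fell by 0.41 and the second largest subunit Polr1b fell by 0.38, all without overlap of the groups. The count of falls was 6 on leaving out any single array and 3 without probe sets that can read several transcripts.

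Of 56 ribosome biogenesis genes 54 were measured, of which 13 fell (24.1%) and 2 rose, a share called of 27.8% in all. The share in all is near the 24.2% called over all genes, and non-members with a signal from 10 to under 12 were called in 31.8%. By direction the calls were mostly falls, and their 24.1% is above the 11.3% of all genes called as lower, where 12.9% were called as higher. The median difference was -0.10. Tsr2, an escort of Rps26, gave 9.56, 9.48 and 9.52 in knockdown, against 9.97, 10.17 and 10.08 in control, and fell by 0.55 (limma adjusted p = 6.37e-04). Riok2, a kinase of late small subunit maturation, fell by 0.47, Nip7, a large subunit assembly factor, fell by 0.40, and Utp4, of the small subunit processome, fell by 0.32. The 2 that rose, named after their values were seen, were Emg1 and Nop2, both RNA methyltransferases, each by 0.25. The count of falls was 8 without Panct1 esiRNA replicate 1, 8 without replicate 2 and 6 without Luciferase esiRNA replicate 1. The count of rises was 0 without Panct1 esiRNA replicate 2 and 1 without any one of the Luciferase esiRNA arrays.

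Among 17 measured genes of mTORC1 and Myc control 3 fell and 2 rose (29.4% called), near the share of 24.2% over all genes. Over all genes 11.3% were called as lower and 12.9% as higher. The list's median was -0.12. Myc, which drives ribosome production, gave 9.14, 9.41 and 9.41 in knockdown, against 9.87, 9.82 and 9.97 in control, and fell by 0.57 (limma adjusted p = 0.00186). Mtor, the kinase, rose by 0.30, the inhibitory Tsc2 fell by 0.24 and Mlst8, a partner of Mtor, fell by 0.26, at adjusted p-values of 0.0272, 0.0325 and 0.0396. The other rise, named after its value was seen, was Tsc1, the partner of Tsc2, by 0.31 (limma adjusted p = 0.0414). Each of the calls of Mtor, Tsc2 and Mlst8 was lost on leaving out any of several arrays. Mtor lost it without Panct1 esiRNA replicate 2 (0.10) or 3 (0.0746) or Luciferase esiRNA replicate 2 (0.0781), within a range from 0.00862 to 1 over 16 settings. Tsc2 kept it only without Luciferase esiRNA replicate 2, and Mlst8 only without Panct1 esiRNA replicate 1, among the 6 arrays. The list's falls numbered 1 without Panct1 esiRNA replicate 2 or 3 or Luciferase esiRNA replicate 1 or 3, and its rises 0 or 1 without any array but Luciferase esiRNA replicate 3. Without Panct1 esiRNA replicate 1 or Luciferase esiRNA replicate 1 Mtor kept its call, so the rise lost there was that of Tsc1.

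Genes whose messages share the oligopyrimidine start with ribosomal proteins, or that host small nucleolar RNAs, changed in 2 of 17 (11.8% called, where 24.2% of all genes were), with a median of 0.02. Snhg7 rose by 0.36 and Snhg3 fell by 0.40, both hosts of small nucleolar RNAs. The call of Snhg3 was lost without Panct1 esiRNA replicate 2 (limma adjusted p = 0.0899) or 3 (0.0814) and without Luciferase esiRNA replicate 2 (0.0834) or 3 (0.0660), within a range from 0.00202 to 0.834 over 16 settings. Snhg12 differed by -0.15 and Snhg6 by 0.11, neither past the threshold. Of the 7 elongation factors measured 0 passed in limma (1 at an unadjusted p under 0.05), with a median of 0.01. Eef2, which moves the ribosome along the message, differed by 0.14, its kinase Eef2k by -0.13, Eef1e1 by -0.09 and Eef1d by 0.07. Ribosomal proteins whose names lie outside the pattern had 2 of 4 genes measured, and 0 passed (0 also at an unadjusted p under 0.05): Rpsa differed by 0.04 and Fau by 0.00.

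**Figure D4:**
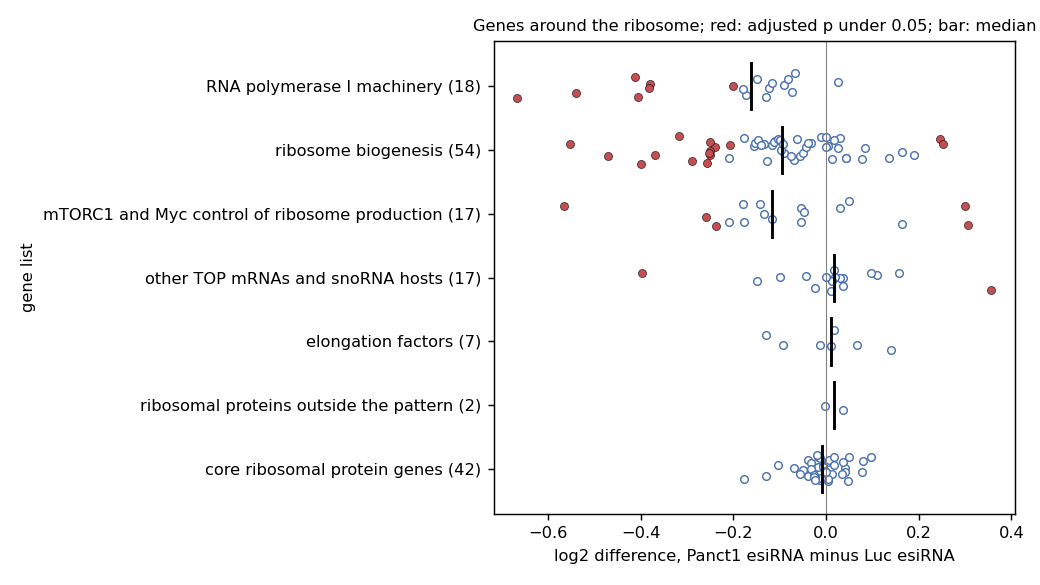
Log2 difference, Panct1 esiRNA minus Luciferase esiRNA, of each measured gene in 6 related lists and of the 42 core genes; red points passed at an adjusted p under 0.05 and the vertical bar is the list's median. The medians of the RNA polymerase I, biogenesis and mTORC1 and Myc lists lie at -0.16, -0.10 and -0.12, while those of the core genes, elongation factors and other oligopyrimidine messages lie between -0.01 and 0.02.

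Markers of cell identity were counted in the same comparison, in which 24.2% of all genes were called, 12.9% as higher and 11.3% as lower. Of 10 embryonic stem cell markers 6 fell and 0 rose, and their mean signal per array was 12.38 to 12.41 in knockdown, against 12.61 to 12.70 in control. None of the 10 was dim, under the lower quartile on all 6 arrays. Of 10 trophectoderm markers 8 rose and 0 fell, with a mean signal of 8.72 to 8.74 in knockdown, against 7.52 to 7.61 in control, and 1 of them, Elf5, was under the lower quartile on all 6 arrays. Of 8 fibroblast markers 2 rose (Col3a1 and Col1a1) and 0 fell, a share of 25% near that of all genes and a median difference of -0.04, with a mean signal of 5.89 to 5.92 in knockdown, against 5.77 to 5.89 in control. Of 6 primitive endoderm markers 1 rose (Dab2) and 2 fell (Gata6 and Sox17), with 5.83 to 5.92 in knockdown, against 5.94 to 6.00 in control. The part of these marker differences in the falls of Rpl39l, Rpl7l1 and Rpl3l and in the counts of the related lists was not tested.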

How the data were processed

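Gene expression was measured on 6 Affymetrix arrays, 3 per group, and the labels gave each array its group. The values are log2 signals that the authors normalised with RMA, with GCOS 1.4 also named, per the submitters' processing notes, and deposited with 2 decimals. Of 45101 probe sets 64 controls were left out. Through the platform annotation, updated by a RefSeq gene table (GRCm38.p6), 34945 probe sets had 1 symbol, 932 several and 9160 none. Per gene, the set with the highest mean over the arrays was used. Groups were compared with limma 3.58.1 (R 4.3.3) over all 18193 genes, with Benjamini-Hochberg adjustment, two-sided, at an adjusted p under 0.05; probe sets were tested likewise over 45037. Ratios of paralogue to parent used exact permutation tests (scipy 1.17.1). The code was tested on simulated data. The number of arrays limits the precision.

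Array medians lay at 6.07 to 6.09, and arrays correlated at 0.997 to 0.998 within groups and at 0.991 to 0.993 between them. No 2 arrays held the same values (at most 3.21% equal).

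The members and lists were chosen with earlier results of these data known. Genes named were all paralogues, the parent genes, Rpl5, Rpl11, Rplp0, Rpl13a, Rps6 and Rps19, up to 10 core genes past the threshold in each direction (there were none) and the 4 genes of each related list with the smallest p; others are marked in the text. A likeness of other genes to Rpl39l over the arrays is not given, since the arrays form 2 separate groups. Promoters are RefSeq windows, searched for motifs on both strands. Alternatives covered normalisation, variance model, array weights, a replicate block, filters, the choice of probe set, a minimum fold and leaving out each array.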

Additional observations from a re-analysis of the deposited data

How the results depend on the processing

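The fall of Rpl39l kept its call in all 16 alternatives (-1.96 to -1.81). The number of genes called was 4404, 1279 with a minimum of 1.2-fold and 3133 to 3986 on leaving out an array. With that minimum Rpl7l1 (-0.34, adjusted p = 0.759) and Rpl3l (-0.56, 0.0753) were not called. Leaving out an array gave -1.94 to -1.81 for Rpl39l, -0.37 to -0.33 for Rpl7l1, -0.64 to -0.47 for Rpl3l, 0.15 to 0.18 for Rpl22l1 and 0.05 to 0.09 for Rps27l. Rpl22l1 passed with quantile normalisation repeated (0.18, limma adjusted p = 0.0491), an intensity trend (0.17, 0.00270), array weights (0.18, 0.0301) and without the dimmer sets (0.17, 0.0387). Core genes that fell numbered 1 with the trend (Rps25, 0.0292), 1 without the dimmer sets (Rps25, 0.0389) and 1 without sets that can read several transcripts (Rps20, 0.0485), which left 21 core genes with a median of -0.02, and 0 otherwise. The core median was -0.014 to -0.0083 on leaving out an array. The cause of these moves was not tested, beyond fewer genes tested under the filters.

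The replicate numbers did not pair the arrays (correlations of -0.19, -0.26 and -0.10), and pairs of arrays with different numbers were not examined. With the replicate numbers as a block, 3496 genes and 0 core genes were called. That block gave 5 falls and 0 rises in biogenesis and 1 fall and 0 rises in the mTORC1 and Myc list. Biogenesis otherwise had 1 fall and 0 rises with the minimum fold, and 6 to 10 falls and 0 to 2 rises on leaving out an array. RNA polymerase I had 2 falls with that minimum, 3 without sets that can read several transcripts and 6 on leaving out an array. Other oligopyrimidine messages had 0 rises and 0 falls with the minimum, and 1 rise and 0 to 1 falls on leaving out an array. The mTORC1 and Myc list had 1 rise with quantile normalisation, 0 with the mean of probe sets, 1 rise and 1 fall adjusted over all probe sets, 0 of each with the minimum, 5 falls with array weights, 1 fall without sets that can read several transcripts, and 0 to 2 rises and 1 to 3 falls on leaving out an array. Elongation factors had 1 rise with the trend and 1 with array weights.

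The smallest difference called for a gene was 0.19, and 33 core genes lay near the top of the scale.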
